A study of Mus musculus with 12 samples.

Results

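The transcripts of 6 proteins that bind N6-methyladenosine (m6A), the most common internal mark of mRNA, were followed in round spermatids with and without IGF2BP3, itself counted among the m6A-binding proteins. They were the 5 genes of the YTH family, Ythdc1, Ythdc2, Ythdf1, Ythdf2 and Ythdf3, together with Hnrnpa2b1. The 6 genes were chosen by name among 28643 gene symbols, and all 6 were measured in all 12 libraries. None of them differed between the genotypes beyond the limit set here, in total RNA, in polysomal RNA or in the ratio of these. What separated them most was their level in total RNA and the ratio of polysomal to total RNA, in which Ythdc1 was among the lowest of all transcripts.

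YTH proteins hold the methylated base in a pocket of a domain that gives the family its name. YTHDC1 is nuclear and is known for roles in splicing and export, in which it has been linked to the splicing factors SRSF3 and SRSF10 and the export receptor NXF1. YTHDC2 is a helicase that germ cells need to enter and keep to meiosis, where it works with MEIOC and RBM46. YTHDF1, YTHDF2 and YTHDF3 are closely related cytoplasmic proteins that have been tied to translation and to decay of methylated mRNA, the latter through the CCR4-NOT scaffold CNOT1. HNRNPA2B1 is a nuclear RNA-binding protein without a YTH domain, linked to m6A through microRNA processing and splicing.

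The cells came from males aged 8 weeks. One group, Igf2bp3+/-, kept 1 intact copy of the gene and served as the control, and the other, Igf2bp3-/-, carried a Cas9-made frameshift on both copies in all cells of the animal. By the methods, the Igf2bp3-/- males used for these experiments were chosen for impaired fertility, so this group was not defined by genotype alone. No library of unmodified mice was used here. Spermatids were purified by flow sorting with cycloheximide, a drug that holds ribosomes in place, and RNA was read as total input (RNA-seq) and as mRNA bound by at least 4 ribosomes (RNC-seq), with 3 libraries for each genotype and assay. The submitters call the libraries biological replicates without naming the animals, so p-values measure the spread between these libraries. Levels are in FPKM, a fragment density per length of transcript and per size of library, which allows levels of different genes to be set side by side. Where a value is lower in such bulk samples, fewer cells of a type and less RNA per cell cannot be told apart.

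All 6 genes are protein coding in the GENCODE M21 annotation of GRCm38. Ythdf1 lies at chr2:180904377-180920949 on the minus strand, Ythdf2 at chr4:132184912-132212303 on the minus strand and Ythdf3 at chr3:16183212-16217037 on the plus strand. Ythdc1 lies at chr5:86804221-86836659 on the plus strand and Hnrnpa2b1 at chr6:51460932-51469894 on the minus strand. No member has a near-identical copy elsewhere, taken as a match of at least 95% identity over at least 50% of its longest coding transcript. A gene model named Gm43055 shares 4.62% of the exonic bases of Ythdc1, pooled over its transcripts, on the same strand. It matches 21.5% of the longest coding transcript of Ythdc1 at that identity. The pseudogene Gm6823 matches 44.4% of the Ythdf2 transcript at that identity. Reads from the stretches shared with Gm43055 or Gm6823 are uncertain.

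Because the 3 Ythdf genes are paralogs, the extent to which their reads could be confused was read from the coding sequences. Aligned coding bases were identical at 67.8% of 1643 positions between Ythdf1 and Ythdf2, at 69.4% of 1674 between Ythdf1 and Ythdf3, and at 69.4% of 1715 between Ythdf2 and Ythdf3. The longest identical runs were 22, 17 and 17 bases. The window of 30 bases in which the 3 genes are most alike is shown for each, 5′ to 3′ on the coding strand, with capitals at the positions that are not the same in all 3. It lies within 1 coding exon of each gene, at chr2:180919185-180919214 in Ythdf1, chr4:132210802-132210831 in Ythdf2 and chr3:16189484-16189513 in Ythdf3.
Ythdf1: tacaaaatggttcTTtGcatcaGaaGgatg
Ythdf2: tacaaaatggttcTGtGcatcaAaaGgatg
Ythdf3: tacaaaatggttcGAtTcatcaAaaAgatg
Of the 30 bases 25 were shared by all 3 genes.

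The sorted cells were checked against markers. Summed FPKM over 6 round spermatid genes, led by Acrv1, ran from 590 to 705 in Igf2bp3+/- RNA-seq and from 741 to 890 in Igf2bp3-/- RNA-seq, and each of the 6 was detected in every group. Over 7 Leydig cell genes, led by Insl3, the sum was 15.4 to 22.6 against 48.6 to 55.0 in RNA-seq and 6.75 to 14.3 against 51.5 to 103 in RNC-seq. All 7 were higher in Igf2bp3-/- and not overlapping in both assays, as were 14.1% of all genes tested in RNA-seq and 9.44% in RNC-seq. Of the 7, 4 passed the limit of a limma adjusted p under 0.05 in RNA-seq and 1 in RNC-seq. Macrophage and blood genes, led by the globin gene Hbb-bs, summed to 4.45 to 5.47 against 10.1 to 11.2 in RNA-seq. In RNC-seq they summed to 8.98 to 10.2 against 10.7 to 25.8. The genotypes did not overlap for Hbb-bs, Cd74 and Lyz2 in RNA-seq, but did for Csf1r, Adgre1 and Ptprc. In RNC-seq they did not overlap for Cd74, Lyz2 and Adgre1, but did for Hbb-bs. Csf1r and Ptprc were too low to be tested there. Csf1r ran from 0 to 0.0381 FPKM against 0.0872 to 0.212 FPKM, and Ptprc from 0 to 0.0654 FPKM against 0.056 to 0.15 FPKM. The summed ranges of the spermatocyte list overlapped in both assays (285 to 299 against 278 to 331 in RNA-seq, 288 to 334 against 264 to 360 in RNC-seq). Sertoli genes, led by Cst9, summed to 2.01 to 2.63 against 3.15 to 3.44 in RNA-seq. In RNC-seq they summed to 1.23 to 1.80 against 2.19 to 3.59, and Fshr was listed at 0 in all 6 RNC-seq libraries. The Sertoli genes did not move together. Of the 4 tested in RNA-seq, 2 had log2 changes above 0, Cst9 at 0.66 and Sox9 at 0.26. The other 2 lay below 0, Rhox5 at -0.81 and Aard at -0.29. The part of these cells in the reader values was not tested.

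The file gives no read counts, and the depth of the libraries is unknown. A relative depth read from the lowest values was highest, and set to 1, for replicate 1 of Igf2bp3-/- RNA-seq, and ran from 0.38 to 0.562 for the other 11 libraries. By the same estimate, Ythdf1 rested on about 15 to 84 fragments per library and Ythdc2 on about 37 to 132, against about 1068 to 5011 for Hnrnpa2b1, and so the values of these 2 YTH genes are the least precise.

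Total RNA held the readers in a fixed order. Hnrnpa2b1 was the most abundant, with a mean of 57.1 FPKM over the 6 RNA-seq libraries, followed by Ythdc1 at 16.5, Ythdf2 at 8.15, Ythdf3 at 7.07, Ythdf1 at 1.05 and Ythdc2 at 0.404 FPKM. Each of the 5 neighbouring pairs kept this order in 6 of 6 libraries, with an exact sign-change permutation p of 0.0312, the smallest that 6 libraries can give, and 0.0446 after Benjamini-Hochberg adjustment over the 10 pairs compared in both assays. The smallest step was from Ythdf2 to Ythdf3, a log2 ratio of 0.22 ± 0.199 (SD, n = 6), and the largest was from Ythdf3 to Ythdf1, 2.75 ± 0.427 (SD, n = 6). That smallest step was mostly in the control, with means of 8.09 and 6.20 FPKM in Igf2bp3+/-. In Igf2bp3-/- the means of Ythdf2 and Ythdf3 were 8.21 and 7.93 FPKM. In Igf2bp3+/- RNA-seq, the mean of Hnrnpa2b1 stood at percentile 92.3 of the genes above 0.1 FPKM, that of Ythdc1 at 81.2, and that of Ythdc2 at 26.7.

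On polysomes the order was less clear. Hnrnpa2b1 remained first with a mean of 38.2 FPKM over the 6 RNC-seq libraries, and Ythdf1 (0.461 FPKM) and Ythdc2 (0.309 FPKM) remained last. Ythdc1 fell to 5.88 FPKM, level with Ythdf3 at 5.29 and Ythdf2 at 4.63. Ythdc1 and Ythdf3 were not separated (exact permutation p = 0.406, higher in 5 of 6 libraries), nor were Ythdf3 and Ythdf2 (exact permutation p = 0.5, Ythdf3 higher in 2 of 6). Ythdf1 was above Ythdc2 in 5 of 6 libraries, with an exact permutation p of 0.0938, whereas the steps from Hnrnpa2b1 to Ythdc1 and from Ythdf2 to Ythdf1 held in 6 of 6 libraries with an exact p of 0.0312. Leaving out any library lowers the number of libraries to 5 in an assay, where no pair can pass.

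**Figure D1:**
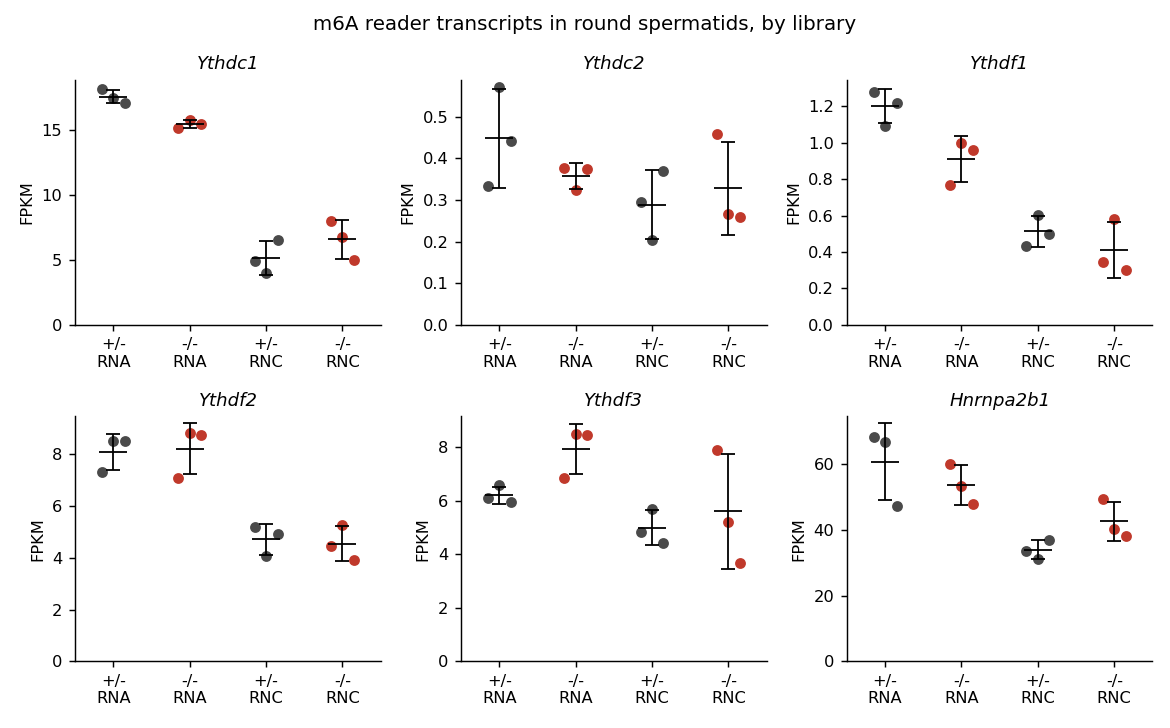
FPKM of each reader (y axis, from 0, a separate scale per gene) in the 12 libraries, in the order Igf2bp3+/- RNA-seq, Igf2bp3-/- RNA-seq, Igf2bp3+/- RNC-seq and Igf2bp3-/- RNC-seq. Points are libraries, and bars show the mean ± SD (n = 3). Ythdc1 drops from 15.2 FPKM or more in every RNA-seq library to 8.04 FPKM or less in every RNC-seq library, while Ythdc2 overlaps across all 4 groups.

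Ythdc1, Hnrnpa2b1 and Ythdc2 were considered first. Ythdc1 had 18.2, 17.5 and 17.1 FPKM in the Igf2bp3+/- RNA-seq libraries and 15.2, 15.8 and 15.5 FPKM in the Igf2bp3-/- RNA-seq libraries. All 3 Igf2bp3-/- libraries were thus lower and the groups did not overlap. The log2 change was -0.18 ± 0.0881 (SE), with an unadjusted p of 0.0705 and a limma Benjamini-Hochberg adjusted p of 0.357, which does not pass the limit of 0.05. Its RNC-seq values were 4.91, 4.00 and 6.56 FPKM against 8.04, 6.75 and 5.02 FPKM. Igf2bp3-/- held the 2 highest of these values, but its lowest library fell inside the control range, and the log2 change of 0.35 ± 0.269 (SE) had a limma adjusted p of 0.833.

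Hnrnpa2b1 had 68.0, 66.7 and 47.1 FPKM in Igf2bp3+/- RNA-seq and 59.9, 53.1 and 47.8 FPKM in Igf2bp3-/- RNA-seq. The groups overlapped because replicate 3 of the control was the lowest of the 6 libraries. The change was -0.16 on the log2 scale (limma adjusted p of 0.633), and it ranged from -0.34 to -0.07 over the alternatives, each of which kept the sign. In RNC-seq it had 33.6, 31.2 and 36.9 FPKM against 49.3, 40.1 and 38.1 FPKM. All 3 Igf2bp3-/- libraries were higher and the groups did not overlap, and Hnrnpa2b1 was the only one of the 6 readers for which this was so in RNC-seq, against a background of 11.3% of all genes tested and 9.44% that were higher. The log2 change was 0.32 ± 0.201 (SE), a 1.25-fold difference with a limma adjusted p of 0.82.

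Ythdc2, the meiotic helicase, was the least abundant reader in total RNA. Its RNA-seq values were 0.333, 0.571 and 0.442 FPKM in Igf2bp3+/- and 0.377, 0.323 and 0.375 FPKM in Igf2bp3-/-. Its RNC-seq values were 0.295, 0.204 and 0.369 FPKM against 0.458, 0.267 and 0.259 FPKM. The groups overlapped in both assays. The log2 change was -0.24 ± 0.257 (SE) in RNA-seq and 0.13 ± 0.392 (SE) in RNC-seq, with limma adjusted p-values of 0.686 and 0.967. The 95% interval of the RNA-seq change ran from -0.83 to 0.35 on the log2 scale, so these libraries did not exclude changes within that range.

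Among the Ythdf genes, Ythdf3 had the highest estimate in total RNA. It had 6.11, 6.56 and 5.95 FPKM in Igf2bp3+/- RNA-seq and 6.85, 8.47 and 8.46 FPKM in Igf2bp3-/- RNA-seq. The groups did not overlap, and replicate 1 of Igf2bp3-/- lay closest to the control. The log2 change was 0.34 ± 0.125 (SE), 1.27-fold, with an unadjusted p of 0.0232 and a p of 0.256 after Benjamini-Hochberg adjustment in limma. On polysomes the values were 4.81, 5.70 and 4.43 FPKM against 7.90, 5.20 and 3.68 FPKM. The Igf2bp3-/- group held both the highest and the lowest of these libraries, and the log2 change was 0.10 ± 0.289 (SE), with a limma adjusted p of 0.963. That sign rested on scaling and on 1 library, since the change was -0.02 after median-centring of the libraries and -0.18 without Igf2bp3-/- RNC-seq replicate 1.

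The estimate for Ythdf1 had the opposite sign in total RNA, with 1.28, 1.09 and 1.22 FPKM in Igf2bp3+/- and 0.766, 1.00 and 0.958 FPKM in Igf2bp3-/-. The groups did not overlap. The log2 change was -0.37 ± 0.186 (SE), with a limma adjusted p of 0.377. On polysomes it had 0.435, 0.603 and 0.500 FPKM against 0.347, 0.583 and 0.300 FPKM, overlapping groups with a log2 change of -0.30 ± 0.36 (SE) and a limma adjusted p of 0.899.

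Ythdf2, the reader best known for mRNA decay, was nearly level between the genotypes. In RNA-seq it had 7.29, 8.49 and 8.50 FPKM against 7.08, 8.80 and 8.73 FPKM, and in RNC-seq 5.20, 4.05 and 4.90 FPKM against 4.44, 5.26 and 3.92 FPKM. Replicate 1 was the lowest RNA-seq library in both genotypes, and the groups overlapped in both assays. The log2 changes were 0.02 (95% interval -0.28 to 0.31) and -0.06 (95% interval -0.58 to 0.46), and the sign turned in 3 of 10 alternatives for RNA-seq and in 2 of 10 for RNC-seq. In folds, the 95% interval of the RNA-seq change of Ythdf2 ran from 0.825 to 1.24.

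Counted together, 0 of the 6 readers passed the limit of a limma adjusted p under 0.05 in RNA-seq, where 0.256% of the 20352 genes tested passed. At an unadjusted p under 0.05 the count was 1 of 6 (Ythdf3), against 15.7% of all genes. For 3 of 6 the genotypes' libraries did not overlap, against 22.7% of all genes. Of these 1 was higher and 2 were lower in Igf2bp3-/-, where 14.1% of all genes were higher and 8.68% lower. In RNC-seq 0 of 6 passed, where 0.115% of 19051 genes did, and 0 of 6 had an unadjusted p under 0.05, against 6.48%. The median log2 change of the 6 readers was -0.17 in RNA-seq and 0.12 in RNC-seq, and that of all genes tested was 0.05 and 0.13. Median-centring of the libraries moved the RNC-seq median of all genes by over 0.1, to 0.01. On that scale the RNC-seq change was 0.24 for Ythdc1, 0.20 for Hnrnpa2b1, 0.01 for Ythdc2, -0.18 for Ythdf2 and -0.42 for Ythdf1.

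**Figure D2:**
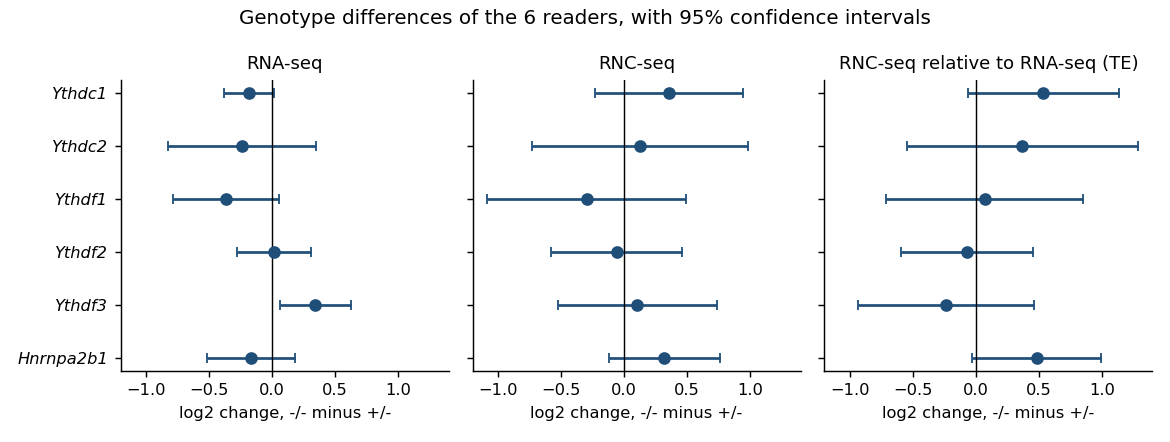
Log2 change of each reader, Igf2bp3-/- minus Igf2bp3+/-, on the log2(FPKM + 0.1) scale in RNA-seq, in RNC-seq and in RNC-seq relative to RNA-seq. Points are limma estimates and bars are 95% confidence intervals before adjustment. The RNA-seq interval of Ythdf3 lies above 0 before adjustment, and each of the other intervals includes 0.

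The RNC-seq level relative to the RNA-seq level within a genotype is here called loading. It is a ratio of separately scaled levels and not the fraction of a transcript on polysomes. A single entry, CT010467.1, took 15.9% to 19.4% of summed FPKM in Igf2bp3+/- RNC-seq and 9.2% to 13.3% in Igf2bp3+/- RNA-seq. In Igf2bp3-/- it took 8.1% to 14.6% and 5.7% to 9.3%. Its part in the loading values was not tested. All 6 readers had a lower level in RNC-seq than in RNA-seq in both genotypes by estimate, as had 54.6% of all genes tested in Igf2bp3+/- and 52.3% in Igf2bp3-/-. The median over them was -0.80 on the log2 scale in Igf2bp3+/- and -0.70 in Igf2bp3-/-, against -0.09 and -0.04 for all genes tested. In Igf2bp3+/-, 4 of 6 passed the limit and were lower, where 25.1% of all genes were called lower and 43.7% were called in either direction. In Igf2bp3-/-, 3 of 6 were called lower, where 10.9% of all genes were called lower and 21% in either direction. The RNC-seq libraries lay below all RNA-seq libraries for 5 of 6 readers in Igf2bp3+/- and for 3 of 6 in Igf2bp3-/-, against 32.5% and 21.3% of all genes.

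Ythdc1 was the least loaded reader. The log2 loading was -1.78 ± 0.187 (SE) in Igf2bp3+/- and -1.24 ± 0.201 (SE) in Igf2bp3-/-, with limma adjusted p-values of 0.000195 and 0.00501. Its RNC-seq level was thus 3.43-fold and 2.37-fold below its RNA-seq level, at percentiles 3.88 and 4.41 of all genes tested. After median-centring the log2 loading was -1.62 and -1.20, and the calls held in all 10 alternatives for each genotype, with adjusted p-values up to 0.00144 and 0.0309 in limma.

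The loading of Hnrnpa2b1 was called in the control only. Its log2 loading was -0.82 ± 0.164 (SE) in Igf2bp3+/-, with a limma adjusted p of 0.00402, and -0.34 ± 0.172 (SE) in Igf2bp3-/-, with an adjusted p of 0.191. The groups of libraries did not overlap in Igf2bp3+/-, where the highest RNC-seq library had 36.9 FPKM and the lowest RNA-seq library 47.1 FPKM. In Igf2bp3-/- the RNC-seq library with 49.3 FPKM exceeded an RNA-seq library with 47.8 FPKM. The difference between the genotypes itself did not pass its test, which is given with the translational efficiencies.

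Of the Ythdf transcripts, Ythdf1 had a log2 loading of -1.09 ± 0.233 (SE) in Igf2bp3+/- and -1.02 ± 0.297 (SE) in Igf2bp3-/-, with limma adjusted p-values of 0.0055 and 0.0388. Ythdf2 had -0.77 ± 0.161 (SE) and -0.84 ± 0.193 (SE), with adjusted p-values of 0.00495 and 0.016. Ythdf3 had the smallest estimates of the 3, at -0.32 ± 0.158 (SE) and -0.56 ± 0.268 (SE), and did not pass, with limma adjusted p-values of 0.135 and 0.167. The control calls of Ythdf1 and Ythdf2 held in all 10 alternatives. Those in Igf2bp3-/- did not. Ythdf1 lost its call there without RNA-seq replicate 1, 2 or 3 (limma adjusted p of 0.0933, 0.143 and 0.118), without RNC-seq replicate 1 or 3 (0.0833 and 0.1) and without a filter on low FPKM (0.0705). Ythdf2 lost its call without RNA-seq replicate 1, 2 or 3 (limma adjusted p of 0.0507, 0.0836 and 0.0695). Ythdf3 gained a call without RNC-seq replicate 2 in Igf2bp3+/- (0.0493) and without RNC-seq replicate 1 in Igf2bp3-/- (0.0437).

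Ythdc2 had a log2 loading of -0.49 ± 0.319 (SE) in Igf2bp3+/- and -0.13 ± 0.315 (SE) in Igf2bp3-/-. Its RNC-seq and RNA-seq libraries overlapped in both genotypes, and the limma adjusted p-values were 0.242 and 0.811.

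**Figure D3:**
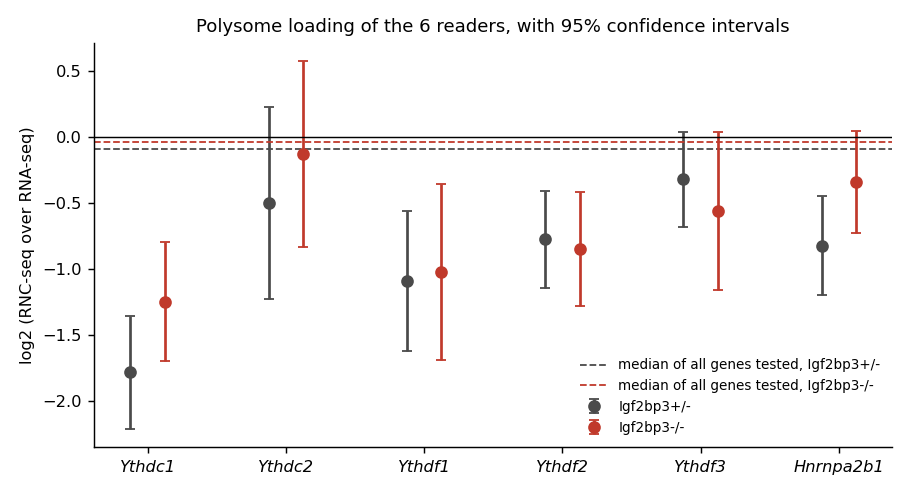
Log2 of RNC-seq over RNA-seq for each reader (y axis, log2(FPKM + 0.1) scale) in Igf2bp3+/- (grey) and Igf2bp3-/- (red), with limma 95% confidence intervals. Dashed lines are the medians of all genes tested, -0.09 and -0.04. Ythdc1 lies lowest in both genotypes, and every point is below the median of its genotype.

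Translational efficiency (TE), the RNC-seq mean over the RNA-seq mean, was compared between the genotypes as the interaction of genotype and assay. In Igf2bp3+/- the TE was 0.293 for Ythdc1, 0.429 for Ythdf1, 0.559 for Hnrnpa2b1, 0.583 for Ythdf2, 0.645 for Ythdc2 and 0.803 for Ythdf3, where the median of 17408 genes was 0.947. In Igf2bp3-/- it was 0.426 for Ythdc1, 0.451 for Ythdf1, 0.793 for Hnrnpa2b1, 0.553 for Ythdf2, 0.916 for Ythdc2 and 0.705 for Ythdf3, with a median of 0.997. Ythdc1 had the lowest TE of the 6 readers in both genotypes, and in each genotype all 6 lay below the median.

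None of the 6 TE differences passed, where 0.00543% of 18414 genes did, and 0 of 6 had an unadjusted p under 0.05, against 7.13% of all genes. The largest was for Ythdc1, a log2 difference of 0.54 ± 0.279 (SE) with a 95% interval from -0.06 to 1.14 and a limma adjusted p of 0.712. Hnrnpa2b1 followed with 0.48 ± 0.238 (SE), a 95% interval from -0.03 to 1.00 and a limma adjusted p of 0.71. These 2 genes kept a positive estimate in all 16 alternatives, from 0.37 to 0.72 and from 0.35 to 0.66. The others were 0.37 ± 0.426 (SE) for Ythdc2, 0.07 ± 0.364 for Ythdf1, -0.07 ± 0.244 for Ythdf2 and -0.24 ± 0.325 for Ythdf3, with limma adjusted p-values of 0.834, 0.964, 0.944 and 0.858. The sign for Ythdf1 turned after median-centring, to -0.06, and in 3 further alternatives. Centring moved the median TE difference of all genes from 0.06 to -0.065, and on that scale the values were 0.41 for Ythdc1 and 0.35 for Hnrnpa2b1.

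The balance between the Ythdf paralogs was then taken as each gene's percent of their summed FPKM, a measure that does not depend on the scaling of the library. The summed level was 14.7, 16.1 and 15.7 FPKM in Igf2bp3+/- RNA-seq and 14.7, 18.3 and 18.2 FPKM in Igf2bp3-/- RNA-seq. Ythdf3 made up 41.6%, 40.6% and 38.0% of it in Igf2bp3+/- and 46.6%, 46.4% and 46.6% in Igf2bp3-/-. Ythdf2 made up 49.7%, 52.6% and 54.3% against 48.2%, 48.1% and 48.1%. Ythdf1 made up 8.72%, 6.78% and 7.76% against 5.21%, 5.50% and 5.28%. The groups did not overlap for any of the 3 shares, and the SD of the Ythdf3 share was 0.142 percentage points in Igf2bp3-/- against 1.89 points in the control.

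The Ythdf3 share in total RNA was 6.45 percentage points higher in Igf2bp3-/-, and the shares of Ythdf2 and Ythdf1 differed by -4.02 and -2.42 points. Each difference had a two-sided exact permutation p of 0.1, the smallest that 3 libraries against 3 can give, so no difference of this kind could pass, and an adjusted p of 0.158 over the 9 share comparisons made. The 3 shares sum to the whole and are not independent. In RNC-seq, Ythdf3 made up 46.1%, 55.1% and 45.1% in Igf2bp3+/- and 62.3%, 47.1% and 46.6% in Igf2bp3-/-, which overlapped, and its difference of 3.25 points had an exact permutation p of 0.5.

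Between the assays, with libraries permuted within genotype, the Ythdf3 share was 7.06 points higher in RNC-seq than in RNA-seq (50.4% against 43.3%), with an exact permutation p of 0.01 and an adjusted p of 0.0675. The Ythdf1 share was lower, 4.48% against 6.54%, with an exact p of 0.015 and an adjusted p of 0.0675, and the Ythdf2 share was 45.2% against 50.2%, with an exact p of 0.105 and an adjusted p of 0.158. None of the 9 passed after adjustment. Without Igf2bp3-/- RNC-seq replicate 2 the Ythdf1 and Ythdf3 shares passed, and without replicate 3 of that group all 3 passed, each with an adjusted p of 0.045 in the exact test.

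**Figure D4:**
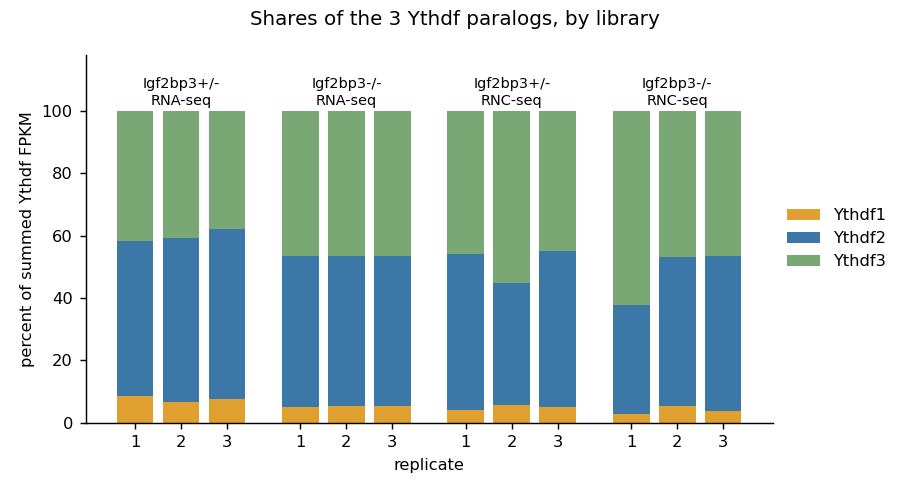
Percent of the summed FPKM of the 3 Ythdf genes (y axis, from 0) that each gene takes in each library, by group and replicate. Ythdf3 takes 46.4% to 46.6% in the Igf2bp3-/- RNA-seq libraries and 38.0% to 41.6% in the Igf2bp3+/- RNA-seq libraries, and the RNC-seq libraries range from 45.1% to 62.3%.

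The other genes of the pathway were counted in 5 lists: 9 m6A writers, 2 erasers, 10 other proteins linked to m6A binding, 11 partners of the readers and 6 relatives of Hnrnpa2b1. None of them passed the limit in RNA-seq, RNC-seq or TE in limma. Of the 37 tested in RNA-seq, the libraries did not overlap for 1 higher and 2 lower other readers, 1 higher and 3 lower partners and 2 lower writers. That is 9 of 37, close to the 22.7% of all genes tested for which they did not overlap.

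Writers had a median log2 change of -0.10 in RNA-seq and 0.16 in RNC-seq. Mettl3, the catalytic subunit, had 1.44 ± 0.273 FPKM against 1.68 ± 0.18 FPKM in RNA-seq (SD, n = 3), a log2 change of 0.22, and its partner Mettl14 had 1.25 ± 0.225 FPKM against 0.875 ± 0.181 FPKM, a difference of -0.47 on the log2 scale (limma adjusted p of 0.343). The next largest in RNA-seq were Rbm15b at -0.30 and Mettl16 at -0.27. In RNC-seq the largest were Cbll1 at 0.50, Wtap at -0.50 and Zc3h13 at 0.33, and in TE they were Mettl14 at 0.63, Cbll1 at 0.60 and Mettl16 at 0.51. The erasers Alkbh5 and Fto had log2 changes of -0.13 and -0.11 in RNA-seq, 0.32 and 0.52 in RNC-seq, and 0.45 and 0.63 in TE, and Fto had an unadjusted p of 0.0305 in TE with a limma adjusted p of 0.686.

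Among the other proteins linked to m6A binding, Igf2bp3 had 38.2, 38.6 and 33.4 FPKM in Igf2bp3+/- RNA-seq and 31.7, 32.5 and 31.4 FPKM in Igf2bp3-/- RNA-seq. A frameshift can leave the transcript in place, and this level does not check the genotype labels. Fmr1 (-0.51), Igf2bp1 (0.41) and Prrc2a (-0.33) had the largest log2 changes in RNA-seq. In RNC-seq these were Prrc2a (0.89), Igf2bp2 (0.53) and Fmr1 (0.45), and in TE they were Prrc2a (1.22), Fmr1 (0.96) and Igf2bp2 (0.79), and no limma adjusted p among these RNC-seq and TE values was below 0.686.

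Partners of YTHDC2 and of the YTHDF proteins did not pass the test in total RNA. Meioc had 10.2 ± 0.753 FPKM against 9.57 ± 0.957 FPKM and Rbm46 5.99 ± 0.865 FPKM against 5.86 ± 0.407 FPKM (SD, n = 3), log2 changes of -0.10 and -0.02. Both were far above Ythdc2 itself, which had 0.449 ± 0.119 FPKM and 0.358 ± 0.0308 FPKM. Cnot1 had 47.1 ± 6.58 FPKM against 39.9 ± 3.49 FPKM, a log2 change of -0.23. The largest changes were for the decay factors Upf1 (-0.42) and Xrn1 (-0.33) and the export receptor Nxf1 (-0.31, unadjusted p of 0.00672 and limma adjusted p of 0.197). In RNC-seq they were Rida (1.07, from levels of 0.608 FPKM or less), Upf1 (0.42) and Cpsf6 (0.38), and in TE Upf1 (0.83), Xrn1 (0.61) and Cnot1 (0.51). Among the hnRNP relatives, Hnrnpa0 (-0.27), Hnrnpdl (0.27) and Hnrnpd (-0.19) led in RNA-seq, Hnrnpa3 (0.82), Hnrnpa0 (-0.44) and Hnrnpd (-0.42) in RNC-seq, and Hnrnpa3 (0.74), Hnrnpab (0.42) and Hnrnpd (-0.23) in TE.

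Genes of the other lists were also called lower on polysomes. In Igf2bp3+/-, where 25.1% of all genes were called lower on polysomes, this was so for 6 of the 10 partners tested, 5 of 9 writers, both erasers, 4 of 10 other proteins linked to m6A binding and 2 of 6 hnRNP relatives, and 1 partner was called higher. In Igf2bp3-/-, where 10.9% of all genes were called lower, the counts were 5 of 10 partners, 1 of 9 writers, 0 of 2 erasers, 3 of 10 other proteins and 1 of 6 relatives. The median log2 loading in Igf2bp3+/- was -0.91 for the partners, -0.72 for the writers and -0.70 for the erasers. It was -0.38 for the hnRNP relatives and -0.32 for the other proteins linked to m6A binding. In Igf2bp3-/- these medians were -0.51, -0.39, -0.16, -0.20 and -0.47, in the same order. Cnot1 had a log2 loading of -1.83 in Igf2bp3+/- and -1.32 in Igf2bp3-/-, Rbm46 -1.28 and -1.15, and Meioc -0.91 and -0.63, each with a limma adjusted p of 0.0378 or less. Among the writers, Mettl14 had -1.11 and -0.48 and Mettl3 -0.02 and -0.05, of which the first value of Mettl14 alone passed, with a limma adjusted p of 0.00663.

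**Figure D5:**
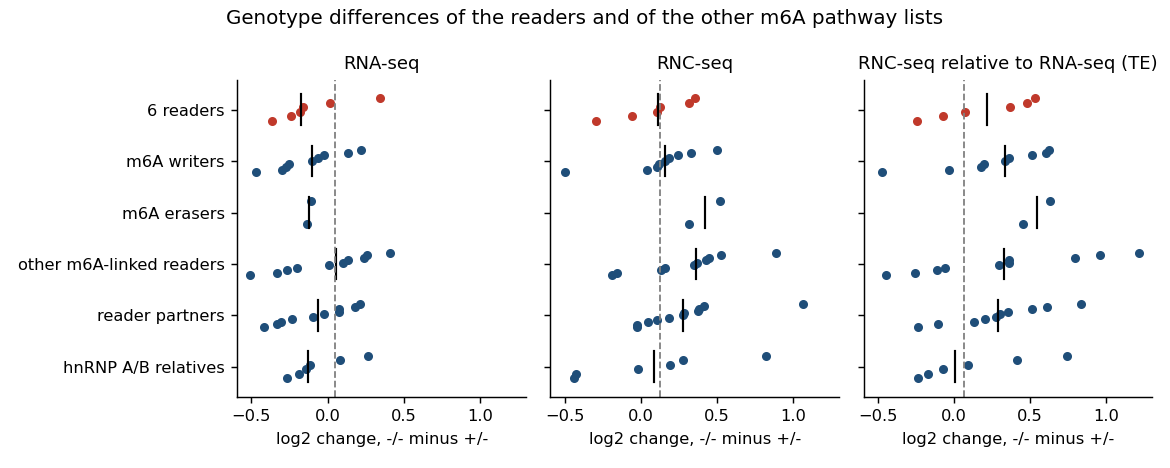
Log2 change, Igf2bp3-/- minus Igf2bp3+/-, of each tested gene of the 6 readers (red) and of the 5 other lists (blue) in RNA-seq, RNC-seq and TE. Black ticks are list medians and the dashed grey line is the median of all genes tested (0.05, 0.13 and 0.06). The reader median is -0.17, 0.12 and 0.22, and no point passed the limit.

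Patterns over the 12 libraries were compared as Pearson's r of log2 values. These take in the difference between the assays as well as shared libraries and scaling, which were not separated. They are given as a description. Among genes with a mean of at least 5 FPKM, those most like Ythdc1 were Fam217a (r = 0.992), Kif27 (0.992) and Donson (0.991). Those most like Ythdf2 were Atp6v1b2 (0.978), Spag5 (0.978) and Sf3b1 (0.975), and those most like Ythdf1 were Mttp (0.964), Aars (0.960) and Pde10a (0.957). For Hnrnpa2b1 they were Tcfl5 (0.948), Ankrd13c (0.940) and Eif4e2 (0.929), and for Ythdf3 Thoc3 (0.944), Prelid3b (0.941) and Tmem39b (0.936). Ythdc2 was matched least well, by 4933411K16Rik (0.865), Rp2 (0.861) and K230010J24Rik (0.846). Within the 6 readers r was highest between Ythdc1 and Ythdf2 (0.926) and lowest between Ythdc2 and Ythdf1 (0.380).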

How the data were processed

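The authors deposited 1 table of FPKM for all 12 libraries, in which columns named WT are Igf2bp3+/- by the labels. The submitters' processing notes and the methods name Trim Galore 0.6.6 for trimming, HISAT2 for alignment (GRCm38) and StringTie 2.1.7 for quantification. The labels and the methods name different library kits and instruments, and the use of strand and the handling of multiply aligned reads are not given in the sources used here. Of 28668 symbols, 25 turned into dates were left out (0.0995% of summed FPKM). Without counts, depth is unknown and no counting interval was computed.

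Values were analysed as log2(FPKM + 0.1), which understates changes of low genes, with limma 3.58.1 in R 4.3.3 (intensity trend, two-sided, Benjamini-Hochberg adjustment over all genes tested, limit 0.05). Genotype was tested within each assay over 6 libraries, TE as the interaction over 12, and loading within each genotype over 6, among genes with a mean FPKM above 0.1 in the assays used. By the methods, input and polysomes were taken from a common extract, whereas loading, TE and shares between assays were tested with the libraries as independent. Paralog shares and level order used exact permutation tests in Python 3.11.15. Coding sequences were aligned with MAFFT 7.526 and copies sought with BLAST 2.17.0 in GENCODE M21, to which 27839 symbols and all 6 members matched. Scripts were tested on simulated data. The members and lists were chosen with earlier results of these data known. Besides the 6 members, named genes were Mettl3, Mettl14, Alkbh5, Meioc, Rbm46, Cnot1 and Igf2bp3, any list gene past the limit and the 3 largest changes of each list per genotype comparison; for likeness, the 3 genes with the highest r per member. Alternatives were a pseudocount of 1, no filter on low FPKM, centring each library, a replicate block, leaving out each library and a limit of unadjusted p under 0.05 with over 1.5-fold. Marker lists of spermatogonia, elongating spermatids and peritubular cells gave summed RNA-seq FPKM of 6.44 to 9.22, 9070 to 11700 and 1.55 to 1.73 in Igf2bp3+/- and 6.72 to 8.34, 10200 to 10300 and 1.05 to 1.60 in Igf2bp3-/-.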

Additional observations from a re-analysis of the deposited data

How the results depend on the processing

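No reader passed the limit in a genotype comparison under any alternative. Counts over all genes were less stable. In RNA-seq 52 genes passed, but 31 without a filter on low FPKM, 1109 with an unadjusted p under 0.05 and over 1.5-fold, and 9 to 38 with a library left out. In RNC-seq 22 passed, but 2 without the filter, 13 with libraries centred (6 higher and 7 lower, against 15 and 7), 1102 with the unadjusted criterion, and 0 to 20 with a library left out. In TE 1 passed, but 0 with a pseudocount of 1, 1207 with the unadjusted criterion, and 1 to 2 with a library left out. Loading in Igf2bp3-/- was called for 3880 genes and for 1155 to 6182 with a library left out, and for 3 readers against 1 to 3. With libraries centred, 4630 genes were called higher and 3655 lower in Igf2bp3+/- loading, against 3331 and 4503. Of the 9 share comparisons 0 passed, against 0 to 3 with a library left out, and of the 10 neighbouring pairs 7 passed, against 0 with a library left out, where no pair can pass.

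Signs turned for small differences. With libraries centred, the log2 change was -0.0152 for Ythdf3 in RNC-seq and -0.0596 for Ythdf1 in TE. With a library left out, it ran from -0.0558 to 0.118 for Ythdf2 in RNA-seq. In RNC-seq it ran from -0.0773 to 0.273 for Ythdc2, from -0.166 to 0.0423 for Ythdf2 and from -0.176 to 0.365 for Ythdf3. In TE it ran from -0.161 to 0.225 for Ythdf1, from -0.183 to 0.0255 for Ythdf2 and from -0.519 to 0.0219 for Ythdf3. The RNC-seq genotype difference in share ran from -5.73 to 2.39 points for Ythdf2 and from -1.91 to 6.41 points for Ythdf3. The cause was not tested.

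The labels give the groups the same replicate numbers, but do not say that the numbers pair libraries, although by the methods both assays drew on common extracts. Deviations from the group means over 19816 genes correlated between -0.0553 and 0.0779 between the assays for libraries of the same number and genotype, and between -0.0166 and 0.144 for same-numbered libraries of the genotypes. With a replicate block, 4 genes passed in RNA-seq, 31 in RNC-seq and 0 in TE, and the block changed no call of a reader. By the estimate of relative depth, Ythdf1 and Ythdc2 rest on few fragments, but the depth of the file is unknown.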
